A study of Mus musculus with 4 samples.

Results

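DNA repair and damage signalling transcripts were measured in glomeruli, the tufts of capillaries that filter blood in the kidney, by sequencing poly(A) RNA from mice at 3 weeks of age. The genes described are 31 members chosen by name, all found by symbol among the 22809 genes of the deposited table. They fall by role into homologous recombination and Fanconi genes (10), end joining genes (4), mismatch repair and resection genes (2), checkpoint kinases with the ATR activator Topbp1 (5), break sensors and mediators (5), single-strand binding and single-strand break repair genes (4) and 1 translesion gene. The HDAC KO group was 2 libraries from mice labelled as a podocyte-specific knockout, of Hdac1 and Hdac2 per the series title, with no other treatment named. The control group was 2 libraries from untreated mice labelled Control (WT). Each library pooled the glomeruli of 2 mice, so the spread given below is between pools. Strain, sex and Cre line are not given in the sources. Podocytes are epithelial cells whose processes cover the outside of those capillaries. The RNA came from whole glomeruli, which also hold endothelial, mesangial and parietal cells.

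Double-strand breaks in DNA are repaired by homologous recombination, which copies the sister chromatid and so is used in S and G2 phase, or by end joining, which religates the ends and acts throughout the cell cycle. The Fanconi pathway repairs links between the strands, mismatch repair corrects replication errors, and the kinases ATM and ATR signal damage to CHK2 and CHK1. Many recombination genes are transcribed mainly in dividing cells, through E2F factors. Mature podocytes normally do not divide. In human cells HDAC1 and HDAC2, deacetylases of histones, have been found at sites of DNA breaks.

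Whole reads were recovered from the TPM values of 22176 genes. They summed to 17476365 and 20943138 in HDAC KO replicates 1 and 2, against 15808117 and 12876939 in control replicates 1 and 2. These are reads assigned to those genes, not the full depth of sequencing. TPM is the read number per base of transcript, expressed as a part of a fixed total per library. Hdac1 was at 22.9 and 22.5 TPM in the HDAC KO libraries, against 19.3 and 18.6 TPM in the controls. Hdac2 was at 23.5 and 20.9 TPM in the HDAC KO libraries, against 20.2 and 24.1 TPM in the controls. The log2 fold changes were 0.25 for Hdac1 (SE 0.17, adjusted p = 0.512) and 0.01 for Hdac2 (SE 0.19, adjusted p = 0.991) by limma. The targeted transcripts were therefore not lower under the HDAC KO label, and every direction below rests on the labels. All 10 podocyte markers were above 0 in every library, and they summed to 130 and 340 TPM in the HDAC KO libraries, against 351 and 799 TPM in the controls. Control replicate 1 stood apart by the sum of 10 proximal tubule markers. They summed to 3825 and 4288 TPM in the HDAC KO libraries, against 40646 and 6551 TPM in the controls. The gap between the controls was uneven over the markers, and 2 of the 10 were lower in control replicate 1. In control replicates 1 and 2, Lrp2 was at 1453 and 997 TPM and Miox at 882 and 822 TPM. Slc5a2 was at 312 and 247 TPM there, and Slc22a8 at 267 and 346 TPM. Values below are therefore given per library, and medians of lists also without control replicate 1. Fewer cells of a type and less RNA per cell cannot be told apart in these bulk samples.

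Of the 10 recombination and Fanconi members, 9 had both HDAC KO values above both control values, beside 36.7% of all genes tested. Of these 10, 4 averaged under 1 TPM in the controls, and among the other 6, 5 lay above. Of 4 end joining members, 3 had a log2 fold change below the median of all genes. Brca1, which steers broken ends into recombination, averaged 4.11 ± 1.18 TPM in HDAC KO glomeruli and 1.77 ± 0.912 TPM in control glomeruli (SD, n = 2 each), a ratio of 2.33. Prkdc, the catalytic subunit of the end joining kinase DNA-PK, averaged 10.1 ± 0.439 TPM in HDAC KO glomeruli and 11.7 ± 0.0555 TPM in control glomeruli (SD, n = 2 each), a ratio of 0.862. Over all 31 members the ratio of mean TPM ran from 0.859 for Rad51c to 5.16 for Rad51b, with a median of 1.36. No member passed an adjusted p of 0.05 in limma on log2(TPM + 1). Every log2 fold change and adjusted p below comes from that fit, and the added 1 understates changes of low genes. Among all 18612 genes tested, 0 were called higher and 1 lower, or 0.00537%.

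At an unadjusted p under 0.05, 2 of 30 tested members had higher values in HDAC KO glomeruli (Rad51b and Rpa2) and 0 had lower values. Among all genes tested 13.4% were higher and 4.46% lower at that p, so the members' share was below the background. Voom on the recovered reads called 0 members after adjustment and put 13 above and 0 below at the same unadjusted p, beside 14.9% of all genes above. In 21 of the 30 tested members both HDAC KO values lay above both control values, and in 1, Prkdc, both lay below. Among all genes tested 36.7% lay above and 14.3% below. After median-ratio scaling 16 members lay above, beside 24.0% of all genes. Exo1, the member under the filter of a mean of 1 TPM, also had both HDAC KO values above both controls. The median log2 fold change of the 30 was 0.37, beside 0.17 for all genes tested. It was 0.16 after median-ratio scaling, which moved the median of all genes to -0.03. It was 0.27 without control replicate 1 and 0.60 without control replicate 2. Blm, Fancd2, Fanci and Rad51b averaged under 1 TPM in the controls and entered the test only through the HDAC KO libraries. Among the other 26 members, 17 lay above, 1 lay below and the median was 0.30.

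**Figure D1:**
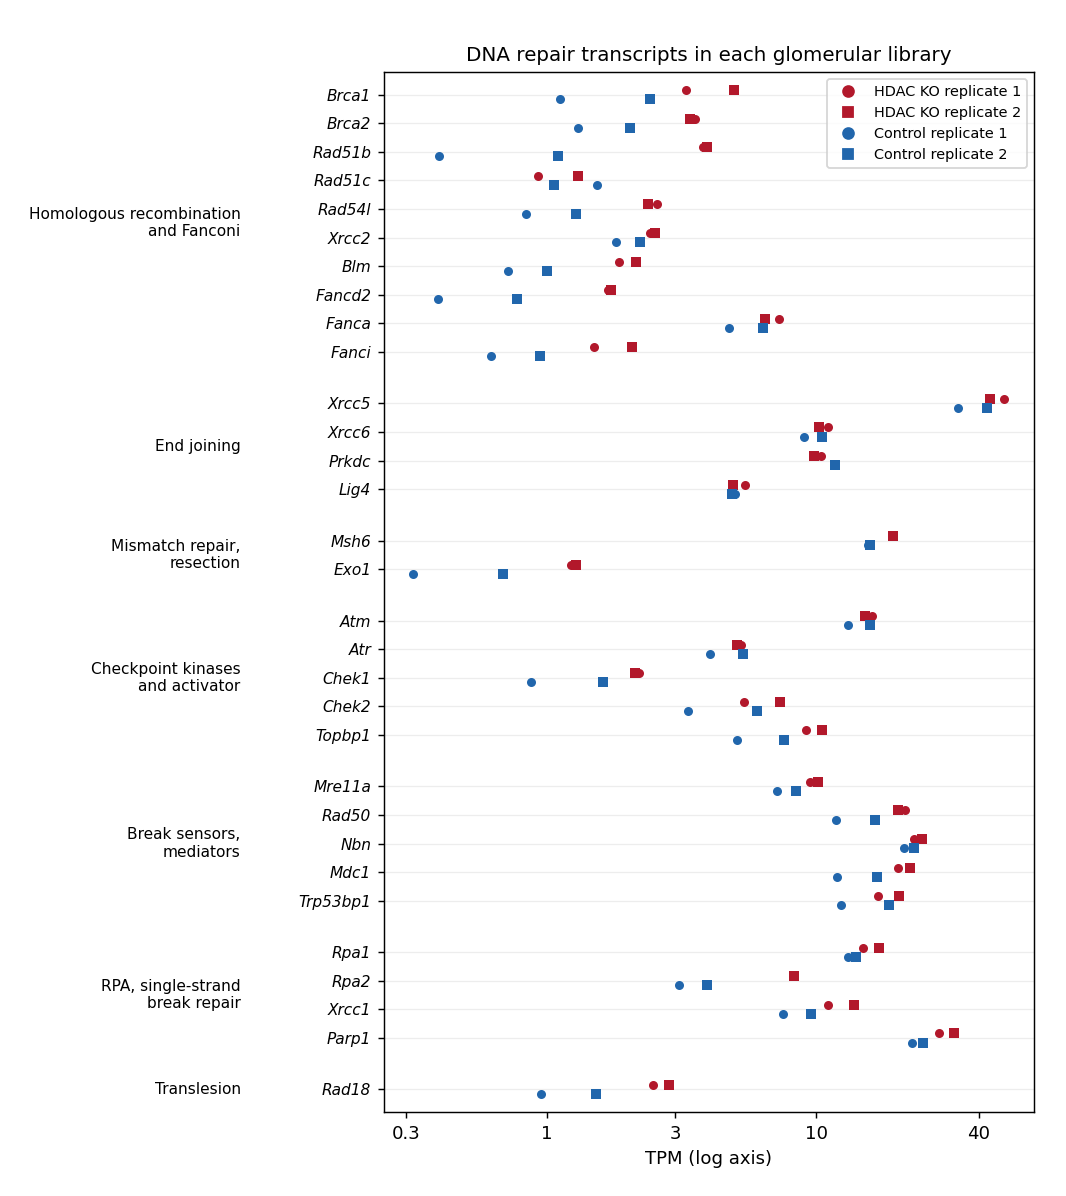
TPM of each member (rows, grouped by role) in each library on a log axis, with HDAC KO libraries in red above the controls in blue, and circles for replicate 1 and squares for replicate 2. Rad51b (3.79 and 3.91 against 0.398 and 1.1 TPM) and Rpa2 (8.26 and 8.23 against 3.1 and 3.94 TPM) are the members with the smallest p, and control replicate 1 is the lowest library for 28 of the 31 members.

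The controls themselves differed. Control replicate 1 was below control replicate 2 in 28 of 31 members, as in 72.4% of all genes tested, and 23 members had both HDAC KO values above control replicate 2. Median-ratio scaling divided TPM by 0.814 in control replicate 1 and 1.04 in control replicate 2. The divisors were 1.04 and 1.13 in HDAC KO replicates 1 and 2. Where control replicate 1 was the lower, the ratio to control replicate 2 is by arithmetic smaller than the ratio to the control mean. The mean HDAC KO level of Brca1 was 1.70 times that of control replicate 2, that of Rad51b 3.52 times, that of Rpa2 2.09 times and that of Atm 0.99 times. Low transcripts showed the larger ratios. The 13 members with a mean of the groups under 5 TPM had a median ratio of 2.29, and the 18 at or above 5 TPM a median of 1.23. Every recombination and Fanconi member except Fanca was in the lower set, and every end joining member in the upper. Role and level can therefore not be told apart in the contrast of these roles. Across the 31 genes, which share the same libraries, level and log2 ratio had a Spearman correlation of -0.486.

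Promoters are shown for 4 members, those with the smallest p among members holding E2F-like letters. Both HDAC KO values of each lay above both controls, which the choice by p favours. The groups overlapped for Rad51c, Xrcc6 and Chek2, which also hold such letters. RefSeq promoters (GRCm38.p6, 250 bases before to 50 after the start) were matched for 25 of the 31 members, 30 promoters in all. The letters TTTCGCGC, TTTGGCGC, TTTCCCGC and TTCCCGCC were searched on both strands, and the last 2 can overlap. They were in 9 of the 30 promoters (30.0%), beside 3.49% of all 32851 promoters and 52.9% of the 17 promoters of S phase genes. CCAAT was in 56.7% of the members' promoters and 37.4% of all, and TTTGAA, the CHR letters of mitotic genes, in 3.33% and 17.9%. The 8 members with an E2F-like match, Brca2, Rad51c, Xrcc6, Msh6, Chek1, Chek2, Topbp1 and Mdc1, had TPM ratios from 0.859 to 2.07 with a median of 1.41. The 17 matched members without one had ratios from 1.06 to 5.16 with a median of 1.28. A match describes letters only, and binding was not measured. Capitals mark the E2F-like letters in the promoters below, of Brca2, Mdc1, Topbp1 and Msh6.
Brca2 (chr5:150522371-150522670, plus strand): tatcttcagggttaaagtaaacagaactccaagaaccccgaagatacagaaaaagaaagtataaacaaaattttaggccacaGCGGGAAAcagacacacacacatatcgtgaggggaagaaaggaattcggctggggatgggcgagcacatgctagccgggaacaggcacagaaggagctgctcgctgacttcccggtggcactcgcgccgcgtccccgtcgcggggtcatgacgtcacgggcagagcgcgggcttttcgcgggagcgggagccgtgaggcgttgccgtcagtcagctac
Mdc1 (chr17:35841248-35841547, plus strand): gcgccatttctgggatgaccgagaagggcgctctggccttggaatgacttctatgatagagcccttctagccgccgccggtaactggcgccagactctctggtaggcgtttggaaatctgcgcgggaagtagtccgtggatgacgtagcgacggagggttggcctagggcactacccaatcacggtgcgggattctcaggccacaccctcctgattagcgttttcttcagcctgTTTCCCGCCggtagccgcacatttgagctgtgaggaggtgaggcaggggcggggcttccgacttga
Topbp1 (chr9:103305077-103305376, plus strand): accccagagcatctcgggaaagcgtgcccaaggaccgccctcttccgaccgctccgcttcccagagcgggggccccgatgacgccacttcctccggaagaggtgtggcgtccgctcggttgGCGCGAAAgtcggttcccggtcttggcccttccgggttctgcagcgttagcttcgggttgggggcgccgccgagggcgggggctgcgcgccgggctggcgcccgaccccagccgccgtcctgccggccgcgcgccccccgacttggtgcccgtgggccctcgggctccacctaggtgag
Msh6 (chr17:87974800-87975099, plus strand): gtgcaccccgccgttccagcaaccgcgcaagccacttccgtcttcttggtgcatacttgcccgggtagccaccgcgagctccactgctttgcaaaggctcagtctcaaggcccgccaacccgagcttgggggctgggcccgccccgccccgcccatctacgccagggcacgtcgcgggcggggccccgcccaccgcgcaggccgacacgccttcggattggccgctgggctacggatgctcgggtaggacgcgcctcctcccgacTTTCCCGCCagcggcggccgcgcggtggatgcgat
Counted from the start site, with negative positions upstream, the capitals began at -168 in Brca2, -16 in Mdc1, -129 in Topbp1 and 15 in Msh6. In Mdc1 and Msh6 the capitals cover 2 overlapping matches.

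Rad51b, a gene of homologous recombination on chromosome 12 (79297282 to 79814690, plus strand, GRCm38), was at 3.79 and 3.91 TPM in the HDAC KO libraries, against 0.398 and 1.1 TPM in the controls. The Rad51b log2 fold change was 1.5 (SE 0.34, adjusted p = 0.126). These values rest on 102 and 123 reads in the HDAC KO libraries and 10 and 22 in the controls. Both HDAC KO libraries were well above either control, and Rad51b had the largest log2 fold change of the members. It passed without control replicate 2 (adjusted p = 0.0318), where 9.04% of all genes were called higher and 3.01% lower. Rad51c, of the same gene family, went the other way in sign and the groups overlapped, with 0.924 and 1.31 TPM in the HDAC KO libraries, against 1.53 and 1.07 TPM in the controls. The Rad51c log2 fold change was -0.12 (SE 0.32, adjusted p = 0.887). Xrcc2, also of that family, was at 2.41 and 2.52 TPM in the HDAC KO libraries, against 1.81 and 2.22 TPM in the controls. The Xrcc2 log2 fold change was 0.20 (SE 0.29, adjusted p = 0.770). Its 4 values lay close together, with the HDAC KO pair just above. Unlike Rad51b, then, Rad51c and Xrcc2 had ratios of 0.859 and 1.22, a difference between genes that was not tested.

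Brca1 (chromosome 11, 101488764 to 101551955, minus strand) was at 3.27 and 4.95 TPM in the HDAC KO libraries, against 1.12 and 2.41 TPM in the controls. The Brca1 log2 fold change was 0.91 (SE 0.38, adjusted p = 0.298). Brca2 (chromosome 5, 150522630 to 150570329, plus strand), which acts in strand invasion and whose promoter is shown above, was at 3.54 and 3.40 TPM in the HDAC KO libraries, against 1.3 and 2.04 TPM in the controls. The Brca2 log2 fold change was 0.76 (SE 0.31, adjusted p = 0.288). The groups did not overlap for either gene, and the HDAC KO values of Brca2 were nearly equal. Rad54l, a motor protein that aids strand exchange, was at 2.56 and 2.37 TPM in the HDAC KO libraries, against 0.834 and 1.29 TPM in the controls. The Rad54l log2 fold change was 0.76 (SE 0.31, adjusted p = 0.291). Blm, a helicase that resolves joined recombination intermediates, was at 1.85 and 2.14 TPM in the HDAC KO libraries, against 0.715 and 1.0 TPM in the controls. The Blm log2 fold change was 0.69 (SE 0.31, adjusted p = 0.331). Both had HDAC KO values above both controls, at ratios of 2.32 and 2.32.

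Fancd2 and Fanci encode the pair of proteins that is tagged with ubiquitin at crosslinked DNA, and Fanca encodes a subunit of the ligase complex upstream. Fancd2 was at 1.69 and 1.73 TPM in the HDAC KO libraries, against 0.395 and 0.778 TPM in the controls (log2 fold change 0.78 with SE 0.32, adjusted p = 0.294), from 96 and 115 reads in the HDAC KO libraries and 21 and 33 in the controls. Fanci was at 1.5 and 2.07 TPM in the HDAC KO libraries, against 0.621 and 0.939 TPM in the controls (log2 fold change 0.64 with SE 0.32, adjusted p = 0.376), from 62 and 100 reads in the HDAC KO libraries and 24 and 29 in the controls. Both partners had all HDAC KO values above all control values, at ratios of 2.92 and 2.29. Fanca, at 7.25 and 6.43 TPM in the HDAC KO libraries, against 4.73 and 6.34 TPM in the controls (log2 fold change 0.27 with SE 0.26, adjusted p = 0.650), had a ratio of 1.24 and its groups were separated by a small gap that closed with median-ratio scaling. Exons of Fanci share 16.0% of their bases with Polg, those of Rad54l 15.4% with Lrrc41 and those of Fanca 10.5% with Zfp276, and the strand setting of the counting is not given in the sources.

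Among the 10 recombination and Fanconi members, the exception to HDAC KO values above both controls was Rad51c. Of these 10, Rad51b, Blm, Fancd2 and Fanci entered the test only through the HDAC KO libraries. The other 6 had 5 above and 0 below and a median log2 fold change of 0.51. The median over all 10 was 0.72, and it was 0.56 without control replicate 1 and 0.58 after median-ratio scaling. It depended on how low values were treated: it was 0.26 with a pseudocount of 5 and 0.27 with the filter raised to 5 TPM, where Fanca alone is left. It was 1.12 with a pseudocount of 0.1 and 1.18 with voom. With a pseudocount of 5 the 4 single-strand binding and break repair genes had a larger median, 0.33. The summed level of the 10 recombination and Fanconi members was 28.8 and 30.8 TPM in the HDAC KO libraries, against 13.5 and 19.2 TPM in the controls.

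Of the end joining genes, Xrcc5 and Xrcc6 encode the Ku subunits that cap broken ends. Xrcc5 was at 49.9 and 44.0 TPM in the HDAC KO libraries, against 33.5 and 42.8 TPM in the controls (log2 fold change 0.30 with SE 0.19, adjusted p = 0.486). Xrcc6 was at 11 and 10.2 TPM in the HDAC KO libraries, against 9.02 and 10.5 TPM in the controls. The Xrcc6 log2 fold change was 0.11 (SE 0.21, adjusted p = 0.829). Xrcc5 was the most abundant member per length in all 4 libraries, and its groups, apart as deposited, overlapped after median-ratio scaling. The Xrcc6 groups overlapped as deposited. Prkdc (chromosome 16, 15637866 to 15842235, plus strand) was at 10.4 and 9.80 TPM in the HDAC KO libraries, against 11.8 and 11.7 TPM in the controls (log2 fold change -0.20 with SE 0.20, adjusted p = 0.669), from 984 and 1081 reads in the HDAC KO libraries and 1038 and 824 in the controls. It was the 1 member with both HDAC KO values below both controls, at a ratio of 0.862. Lig4, the ligase that seals the ends, was at 5.45 and 4.92 TPM in the HDAC KO libraries, against 4.97 and 4.85 TPM in the controls (log2 fold change 0.06 with SE 0.25, adjusted p = 0.925), with overlapping groups. The median log2 fold change of the 4 was 0.09, or 0.05 without control replicate 1 and -0.12 after median-ratio scaling, and 1 lay above and 1 below the controls.

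**Figure D2:**
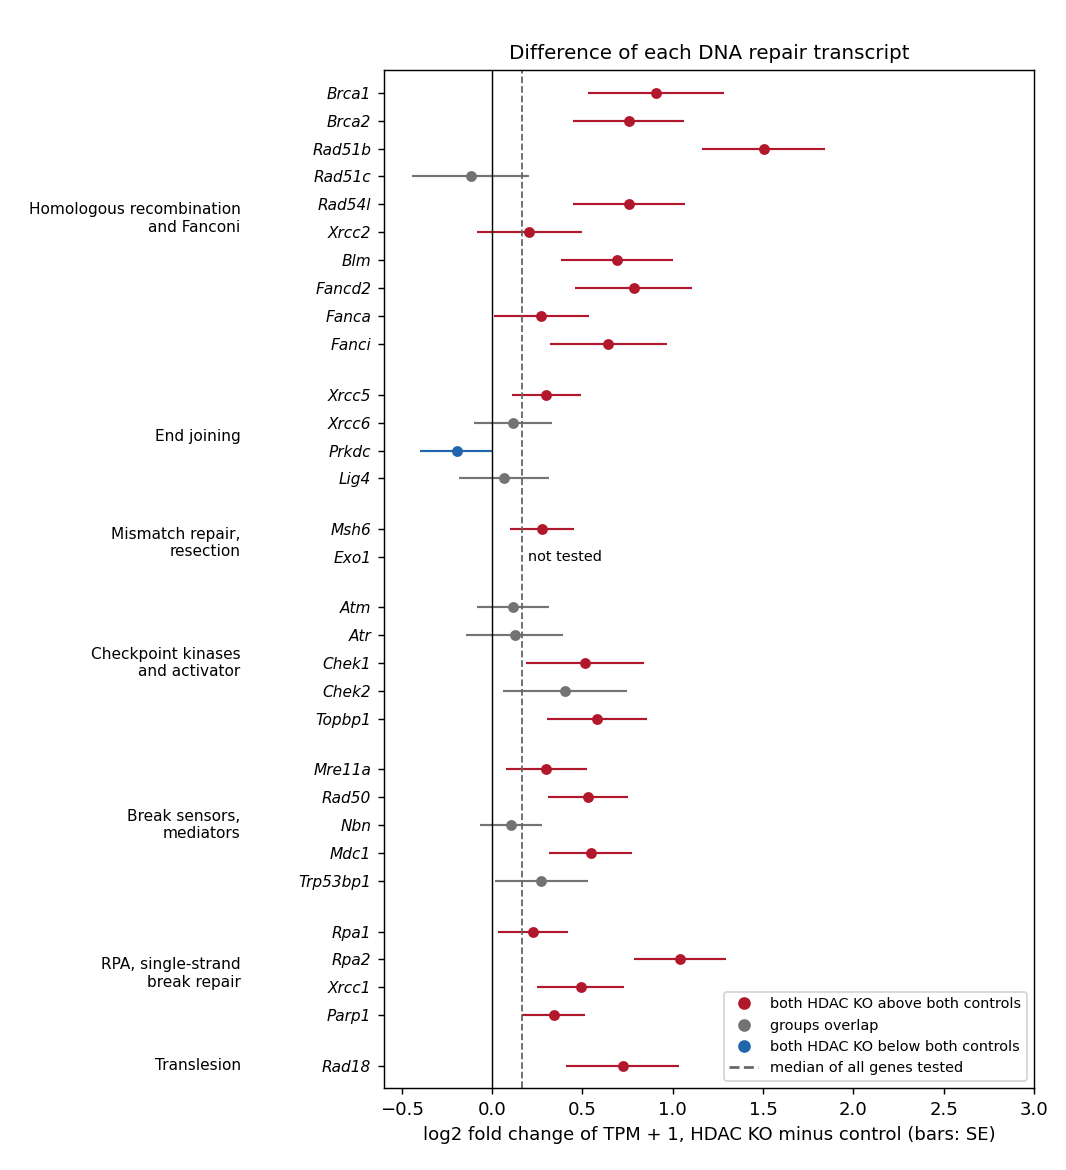
log2 fold change of TPM + 1, HDAC KO minus control, with its standard error for each tested member, by role. Red marks both HDAC KO values above both controls, blue both below and grey an overlap. The dashed line is the median of all genes tested (0.17). End joining genes lie between -0.20 and 0.30. Recombination and Fanconi genes have a median of 0.72, but 4 of them entered the test only through the HDAC KO libraries. Without these 4 the median is 0.51.

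Of the mismatch repair genes, Msh6 (chromosome 17, 87975062 to 87990892, plus strand), which helps to recognise mispaired bases and whose promoter is shown above, was at 19.1 and 19.2 TPM in the HDAC KO libraries, against 15.5 and 15.8 TPM in the controls. The Msh6 log2 fold change was 0.28 (SE 0.18, adjusted p = 0.481). The values within each group were nearly equal and the groups did not overlap, at a ratio of 1.23; the gap closed with median-ratio scaling. Exo1, an exonuclease of mismatch repair and of end resection, averaged under 1 TPM over the libraries and was not tested. It was at 1.23 and 1.28 TPM in the HDAC KO libraries, against 0.319 and 0.688 TPM in the controls, from 74 and 90 reads in the HDAC KO libraries and 18 and 31 in the controls, a ratio of 2.49. With no filter its log2 fold change was 0.59 (SE 0.24, adjusted p = 0.296 by limma).

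The checkpoint members are the kinases at the top of the pathway, their effector kinases and an activator. Atm, the kinase activated by double-strand breaks, was at 16.1 and 15.2 TPM in the HDAC KO libraries, against 13.1 and 15.8 TPM in the controls. The Atm log2 fold change was 0.11 (SE 0.20, adjusted p = 0.818). Atr, the kinase activated by single-stranded DNA, was at 5.23 and 5.08 TPM in the HDAC KO libraries, against 4.04 and 5.32 TPM in the controls. The Atr log2 fold change was 0.13 (SE 0.27, adjusted p = 0.852). For both, the groups overlapped, and the sign of the log2 fold change turned with median-ratio scaling (-0.11 and -0.069). Chek1, which encodes the kinase downstream of ATR, was at 2.2 and 2.12 TPM in the HDAC KO libraries, against 0.871 and 1.61 TPM in the controls (log2 fold change 0.51 with SE 0.33, adjusted p = 0.484), from 73 and 82 reads in the HDAC KO libraries and 27 and 40 in the controls. Chek2, which encodes the kinase downstream of ATM, was at 5.40 and 7.33 TPM in the HDAC KO libraries, against 3.34 and 6.05 TPM in the controls. The Chek2 log2 fold change was 0.40 (SE 0.34, adjusted p = 0.603). The Chek1 groups did not overlap and the Chek2 groups did, since HDAC KO replicate 1 was below control replicate 2. Topbp1, which activates ATR and whose promoter is shown above, was at 9.12 and 10.5 TPM in the HDAC KO libraries, against 5.06 and 7.61 TPM in the controls (log2 fold change 0.58 with SE 0.27, adjusted p = 0.349), with no overlap. The median of the 5 was 0.40, but 0.05 without control replicate 1 and 0.75 without control replicate 2.

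Mre11a, Rad50 and Nbn encode the complex that senses broken ends. Rad50 was at 21.2 and 20.0 TPM in the HDAC KO libraries, against 11.8 and 16.5 TPM in the controls (log2 fold change 0.53 with SE 0.22, adjusted p = 0.304). Mre11a was at 9.45 and 10.2 TPM in the HDAC KO libraries, against 7.16 and 8.43 TPM in the controls (log2 fold change 0.30 with SE 0.22, adjusted p = 0.55). Nbn was at 23.1 and 24.6 TPM in the HDAC KO libraries, against 21.1 and 23.1 TPM in the controls. The Nbn log2 fold change was 0.11 (SE 0.17, adjusted p = 0.801). Rad50 and Mre11a had HDAC KO values above both controls and Nbn did not, although the proteins act as 1 complex; the Nbn value changed sign after median-ratio scaling (-0.12). Mdc1, which binds phosphorylated H2AX and whose promoter is shown above, was at 20.1 and 22.2 TPM in the HDAC KO libraries, against 11.9 and 16.8 TPM in the controls (log2 fold change 0.54 with SE 0.23, adjusted p = 0.302), with no overlap. Trp53bp1, which limits resection, was at 16.9 and 20.3 TPM in the HDAC KO libraries, against 12.3 and 18.6 TPM in the controls (log2 fold change 0.27 with SE 0.26, adjusted p = 0.640), with an overlap, and without control replicate 1 its log2 fold change was -0.0058. Its exons share 15.0% of their bases with Tubgcp4. The median of the 5 was 0.30, or 0.20 without control replicate 1, 0.09 after median-ratio scaling and 0.55 without control replicate 2.

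Rpa1 and Rpa2 encode subunits of RPA, the protein that coats single-stranded DNA in replication and repair. Rpa2 (chromosome 4, 132768332 to 132778752, plus strand) was at 8.26 and 8.23 TPM in the HDAC KO libraries, against 3.1 and 3.94 TPM in the controls (log2 fold change 1.04 with SE 0.26, adjusted p = 0.140), from 177 and 206 reads in the HDAC KO libraries and 62 and 63 in the controls. Its HDAC KO values were nearly equal and each was over the higher control by a wide margin, at a ratio of 2.34 between the means, and it passed without control replicate 2 (adjusted p = 0.0426), where 9.04% of all genes were called higher. Rpa1, at 14.9 and 17.1 TPM in the HDAC KO libraries, against 13.1 and 14.0 TPM in the controls (log2 fold change 0.22 with SE 0.19, adjusted p = 0.607), had a ratio of 1.18, so that the subunits of the same complex differed in ratio, a difference that was not tested. Xrcc1, the scaffold of single-strand break repair, was at 11 and 13.7 TPM in the HDAC KO libraries, against 7.51 and 9.56 TPM in the controls. The Xrcc1 log2 fold change was 0.49 (SE 0.24, adjusted p = 0.367). Parp1, which marks breaks with poly(ADP-ribose), was at 28.4 and 32.4 TPM in the HDAC KO libraries, against 22.7 and 24.9 TPM in the controls. The Parp1 log2 fold change was 0.34 (SE 0.17, adjusted p = 0.384). All 4 of these genes had HDAC KO values above both controls as deposited, while Rpa1 and Parp1 overlapped after median-ratio scaling. Their median was 0.42, or 0.31 without control replicate 1 and 0.19 after median-ratio scaling. Rad18, the ligase that tags PCNA for translesion synthesis, was at 2.48 and 2.85 TPM in the HDAC KO libraries, against 0.954 and 1.52 TPM in the controls (log2 fold change 0.72 with SE 0.31, adjusted p = 0.318), with no overlap and a ratio of 2.16.

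Other genes of the same pathways were read from the same fit, and 0 of them passed after adjustment in limma. Of 29 tested recombination and Fanconi genes outside the members, 18 (62.1%) had both HDAC KO values above both controls and 0 below. At an unadjusted p under 0.05, 3 (10.3%) were up and 0 down. Among all genes tested, 36.7% lay above both controls and 14.3% below, and 13.4% were up and 4.46% down at that p. The counts of all lists below stand beside these same shares. The median log2 fold change of the 29 was 0.36 (0.23 without control replicate 1). Bard1, the partner of BRCA1, was at 2.62 and 2.94 TPM in the HDAC KO libraries, against 1.08 and 1.22 TPM in the controls (log2 fold change 0.81 with SE 0.29, adjusted p = 0.243). Eme1, a subunit of a nuclease that cuts joint molecules, was at 2.02 and 2.86 TPM in the HDAC KO libraries, against 0.595 and 0.745 TPM in the controls. The Eme1 log2 fold change was 1.03 (SE 0.32, adjusted p = 0.193). Eme1 averaged 0.670 TPM in the controls and entered the test only through the HDAC KO libraries. The same held for Rad54b (0.653 TPM in the controls), also counted above. Exons of Rad54b share 35.9% of their bases with other genes, and those of Eme1 10.7%. The 6 other end joining genes had a median of 0.08 (0.04 without control replicate 1), with 2 above and 0 below, and 0 in either direction at an unadjusted p under 0.05. The lists of other end joining genes and end joining members thus had nearly the same median, both under that of all genes.

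The 6 other mismatch repair genes had a median of 0.22 (0.12 without control replicate 1), with 3 above, 0 below and 0 at an unadjusted p under 0.05. Nucleotide excision repair genes, 16 in all, had a median of 0.19 (0.11 without control replicate 1), with 8 above, 0 below, 1 up and 0 down at that p. The damage sensor Ddb1 was at 144 and 128 TPM in the HDAC KO libraries, against 99.5 and 97.2 TPM in the controls. The Ddb1 log2 fold change was 0.46 (SE 0.16, adjusted p = 0.221). These medians lay near that of all genes. Base excision repair genes, 15 in all, had a median of 0.35 (0.18 without control replicate 1). Of these, 10 (66.7%) lay above and 0 below, and 2 (13.3%) were up and 0 down at that p. Ung, the uracil glycosylase, was at 2.91 and 3.39 TPM in the HDAC KO libraries, against 0.765 and 0.958 TPM in the controls. The Ung log2 fold change was 1.16 (SE 0.30, adjusted p = 0.149). Ung averaged 0.862 TPM in the controls and entered the test only through the HDAC KO libraries, as did Neil3 of the same list (0.791 TPM). Translesion synthesis genes, 10 in all, had a median of 0.11 (0.02 without control replicate 1), with 5 above, 1 below, 1 up and 0 down at that p. Mad2l2, a subunit of polymerase zeta, was at 8.36 and 8.89 TPM in the HDAC KO libraries, against 5.02 and 3.57 TPM in the controls (log2 fold change 0.88 with SE 0.27, adjusted p = 0.187). The polymerase Rev1 had both HDAC KO values below, at 8.56 and 9.09 TPM in the HDAC KO libraries, against 9.33 and 12.9 TPM in the controls (log2 fold change -0.29 with SE 0.24, adjusted p = 0.602), with 26.6% of its exon bases shared with another gene.

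Other checkpoint genes, 13 tested, had a median of 0.30, or 0.07 without control replicate 1 and 0.61 without control replicate 2, with 6 above and 1 below. At an unadjusted p under 0.05, 3 were up and 0 down. H2afx, the histone variant phosphorylated at breaks, was at 25.3 and 32.4 TPM in the HDAC KO libraries, against 13.8 and 13.4 TPM in the controls. The H2afx log2 fold change was 1.02 (SE 0.20, adjusted p = 0.11). Trp53, which encodes p53, was at 24.2 and 27.3 TPM in the HDAC KO libraries, against 11.9 and 18.7 TPM in the controls. The Trp53 log2 fold change was 0.74 (SE 0.26, adjusted p = 0.230). Neither gene overlapped between the groups, and H2afx shares 10.2% of its exon bases with another gene. The 21 tested targets of p53 had a median of 0.43 (0.38 without control replicate 1), with 12 above, 1 below, 6 up and 0 down at that p. Pmaip1, a pro-apoptotic member of the BCL2 family, was at 28.7 and 27.6 TPM in the HDAC KO libraries, against 11.8 and 12.5 TPM in the controls (log2 fold change 1.15 with SE 0.18, adjusted p = 0.0988). Btg2, an antiproliferative gene, was at 60.0 and 63.3 TPM in the HDAC KO libraries, against 17.5 and 26.5 TPM in the controls. The Btg2 log2 fold change was 1.47 (SE 0.23, adjusted p = 0.104).

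**Figure D3:**
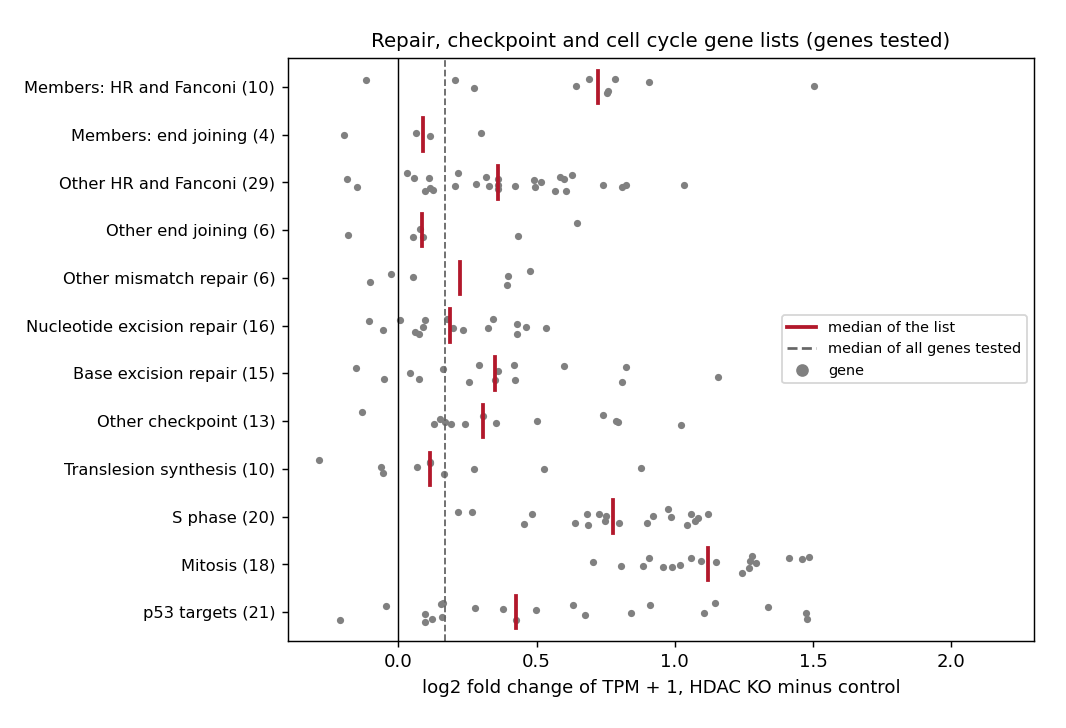
log2 fold change of TPM + 1, HDAC KO minus control, of each tested gene (grey points) in lists of repair, checkpoint, cell cycle and p53 target genes, with the median of each list (red) and of all genes tested (dashed, 0.17); the number tested is in brackets. The median of the recombination and Fanconi members is 0.72 and that of the S phase list 0.78. Without the 4 of these members that entered the test only through the HDAC KO libraries, the members' median is 0.51. Both end joining lists (0.09 and 0.08) lie left of the dashed line.

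Transcripts of the cell cycle were also read. Of 20 S phase genes, 19 had both HDAC KO values above both controls and 0 below. At an unadjusted p under 0.05, 14 were up and 0 down, and 0 passed after adjustment in limma. The median was 0.78, or 0.62 without control replicate 1. Their summed level was 217 and 220 TPM in the HDAC KO libraries, against 98.2 and 136 TPM in the controls. Rrm2, a subunit of the enzyme that makes deoxynucleotides, was at 26.3 and 25.3 TPM in the HDAC KO libraries, against 10.6 and 12.1 TPM in the controls. The Rrm2 log2 fold change was 1.12 (SE 0.19, adjusted p = 0.106). Of 18 mitotic genes, 18 lay above, 17 were up and 0 down at that p, and 0 passed after adjustment. The median was 1.12, or 0.93 without control replicate 1, with a summed level of 153 and 196 TPM in the HDAC KO libraries, against 50.4 and 84.4 TPM in the controls. Top2a, which untangles chromosomes, was at 17.2 and 20.3 TPM in the HDAC KO libraries, against 4.44 and 8.40 TPM in the controls. The Top2a log2 fold change was 1.46 (SE 0.32, adjusted p = 0.123). The part of cell cycle transcripts in the members' values was not tested.

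Marker lists of cell types are given beside these values. Of 12 immune markers, 11 were tested and all 11 lay above the controls, with a median of 2.7 (1.89 without control replicate 1) and a summed level of 1778 and 1959 TPM in the HDAC KO libraries, against 137 and 419 TPM in the controls. The 8 parietal epithelial markers all lay above as well, with a median of 1.91 (1.53 without control replicate 1) and a summed level of 794 and 598 TPM in the HDAC KO libraries, against 173 and 229 TPM in the controls. Of 10 podocyte markers 3 lay below and 0 above, with a median of -0.89. That median depended on single libraries, at -1.54 without control replicate 1, -0.24 without control replicate 2, -0.41 without HDAC KO replicate 1 and -1.45 without HDAC KO replicate 2. The 10 proximal tubule markers had 8 below and 0 above, with a median of -1.45 (-0.96 without control replicate 1). The 10 glomerular endothelial markers overlapped throughout, with a median of -0.36 and a summed level of 264 and 552 TPM in the HDAC KO libraries, against 330 and 725 TPM in the controls. The sign of the median turned with 1 library: it came to 0.15 without control replicate 2 and 0.16 without HDAC KO replicate 1, and -0.86 without control replicate 1 and -0.88 without HDAC KO replicate 2. The 8 mesangial and smooth muscle markers had 2 above and 1 below, with a median of 0.21 and a summed level of 140 and 200 TPM in the HDAC KO libraries, against 127 and 184 TPM in the controls. That median was -0.07 without control replicate 1, -0.10 without HDAC KO replicate 2, 0.46 without HDAC KO replicate 1 and 0.58 without control replicate 2, so its sign too depended on 1 library. No marker of these lists was at 0 in any library. The part of these cell types in the repair transcripts was not tested, and which cells made the transcripts was not measured.

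**Figure D4:**
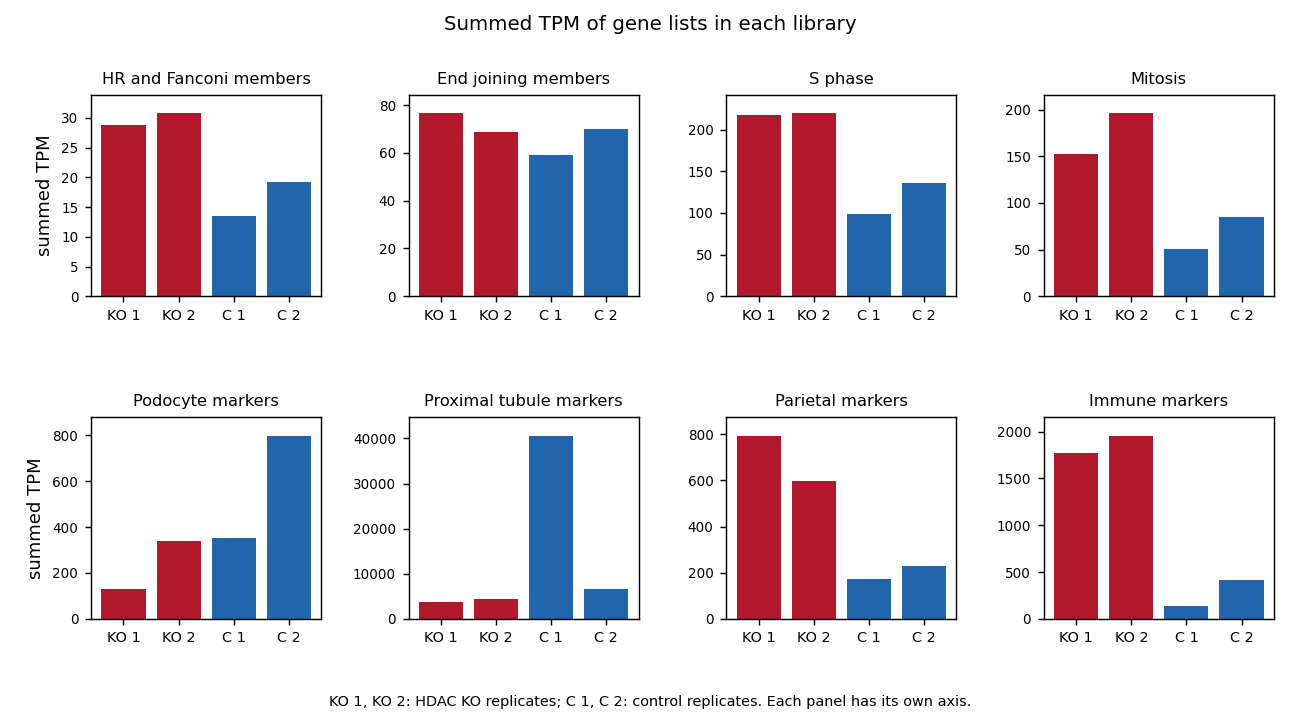
Summed TPM of members and of gene lists in each library, with HDAC KO in red left of the controls in blue and a separate axis from 0 in each panel. The recombination and Fanconi members, S phase, mitosis, parietal and immune lists are higher in both HDAC KO libraries than in both controls. The end joining members are not (76.8 and 68.9 against 59.2 and 69.9 TPM). The sum of the proximal tubule markers is highest in control replicate 1, a gap that single markers did not all share.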

How the data were processed

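Poly(A) RNA of isolated glomeruli was sequenced in 4 libraries, 2 labelled HDAC KO and 2 control. The authors deposited 1 table of TPM values, with 1 column per sample, identified by its name. Tools listed in the submitters' processing notes, with no role stated, are DESeq2 1.30.1, STAR 2.7.9, featureCounts 2.0.0 and fastp 0.20, and the build is GRCm38.p6. Annotation, strand setting and gene filter are not given in the sources.

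Symbols, positions and exon lengths came from GENCODE M21 (GRCm38) and a table of gene names, and 22762 genes had a symbol. TPM multiplied by the union of exon lengths gave whole reads, within a relative tolerance of 1e-06, for 22176 genes (97.2%) and 30 of the members, Xrcc5 being the other. Read depth limits low members most, and read numbers are printed for some of them.

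limma 3.58.1 in R 4.3.3 (lmFit, eBayes with trend, 2 residual degrees of freedom) was run on log2(TPM + 1) over the 18612 genes with a mean of at least 1 TPM, with Benjamini-Hochberg adjustment over all of them, and checked on simulated reads. All adjusted p-values come from it unless voom is named. With 2 libraries a group an exact permutation p is at least 0.333, so none was used. No set test was run, and lists are described by counts and medians. All members are named, with up to 4 genes of each further list by smallest p. The members and lists were chosen with earlier results of these data known. In 2 further lists 1 symbol each was not matched. Alternatives were quantile and median-ratio scaling, TPM over nuclear genes, no trend, a filter at 5 TPM or none, pseudocounts of 5 and 0.1, a replicate block, voom on reads with a mean of at least 10 per gene, and each library left out. Python 3.11.15, numpy 2.4.6, pandas 2.3.3, scipy 1.17.1 and matplotlib 3.10.9 were used. Some items are not reported here.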

Additional observations from a re-analysis of the deposited data

How the results depend on the processing

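No member was called in either direction as reported, nor under any alternative other than leaving out a library, where the count called higher ran from 0 to 2, the 2 being Rad51b and Rpa2 without control replicate 2. The 2 members higher at an unadjusted p under 0.05 became 5 with a pseudocount of 5, 5 with no filter, 1 with a mean of at least 5 TPM, 4 with median-ratio scaling, 9 without the trend, 13 with voom on whole reads, and from 0 to 14 with a library left out, the 14 without control replicate 2, where 27.1% of all genes were higher at that p. Shares of all genes at that p were taken only for the reported fit (13.4%), voom (14.9%) and the fit without control replicate 2. The other counts have no such share beside them and do not tell the members from genes at large. Fitting the replicate number as a block gave 5 members, also without a share of all genes. The numbers did not establish pairing: deviations of same-numbered libraries had a correlation of 0.140 over genes, and 58.9% of genes had the same sign of replicate 2 minus replicate 1 in both groups. The 21 members above both controls became 11 of 18 with a mean of at least 5 TPM. No share of all genes was taken under that filter. The members' median log2 fold change of 0.37 became 0.16 with median-ratio scaling and 0.18 with quantile normalization, and ran from 0.27 to 0.60 with a library left out. Of 405 member values under alternatives, 17 changed sign, none past the threshold: with median-ratio scaling Xrcc6 (-0.10), Lig4 (-0.13), Atm (-0.11), Atr (-0.069) and Nbn (-0.12), with quantile normalization Xrcc2 (-0.053), Xrcc6 (-0.10), Lig4 (-0.15), Atm (-0.086), Atr (-0.11) and Nbn (-0.058), and over nuclear genes Lig4 (-0.014). With a library left out, Rad51c ran from -0.27 to 0.028, Atm from -0.014 to 0.24, Atr from -0.038 to 0.29 and Trp53bp1 from -0.0058 to 0.55. The cause was not tested. With 2 libraries a group, a lone library left in a group is assumed to vary like the other group.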

Other observations

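Promoters of the further lists held the searched letters at different shares. TTTGAA, on either strand, was in 71.4% of 14 promoters of mitotic genes, beside 17.9% of all promoters. It was in 3.33% of the 30 promoters matched for 25 of the 31 repair and signalling genes. The E2F-like letters were in 32.0% of 25 promoters of the other recombination and Fanconi genes, 30.0% of 10 promoters of the other checkpoint genes and 4.76% of 21 promoters of p53 targets, beside 3.49% of all. Genes can have more than 1 promoter in the table, and missing entries were not replaced. These shares are descriptions with no test.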
